A study of Rattus norvegicus with 10 samples.

Results

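The 4 control libraries of a 10-library RNA sequencing series were compared: 2 of control oligodendrocytes (OL miR-ctl 1 and 2) and 2 of control oligodendrocyte progenitor cells (OPC anti-miR-ctl 1 and 2), shortened to OLs and OPCs. The members were taken from the sample titles, and no measured value entered the choice. The comparison asks how the transcriptome of a dividing progenitor differed from that of an OL on differentiation day 5 (DD5), genome-wide and from counts. The other 6 libraries had miR-145 raised, alone or with miR-219, or miR-145 inhibited, and of these the 2 libraries of OPC anti-miR-145 were used here as a second OPC group.

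OLs are the cells that wrap axons of the central nervous system in myelin, and OPCs are the dividing cells from which they come. As background, platelet-derived growth factor and fibroblast growth factor keep OPCs in the cell cycle, and thyroid hormone together with growth factor withdrawal lets them leave it. A differentiating cell then loses progenitor genes, passes through a premyelinating stage, and makes the lipids and proteins of the myelin membrane under the control of Sox10, Olig2 and Myrf.

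Both groups were primary cells of Sprague-Dawley rats, shaken off mixed glial cultures of neonatal cortex and passed over a plate to which other cells stick, so each culture was enriched for the lineage and not pure. Both were kept in a defined medium with insulin and hydrocortisone. OPCs grew with FGF2 and PDGFAA at 0.01 µg/mL each. OLs were given T3 at 15 nM, CNTF (ciliary neurotrophic factor) at 0.01 µg/mL and N-acetyl cysteine at 5 ng/mL, either from plating on or by replacing a part of the progenitor medium, so it is not known here whether any FGF2 or PDGFAA remained. The sources differ on how the control was delivered. The study's results state that miRNA mimics took the place of lentivirus for the OLs sequenced on DD5. By the treatment text of the labels, OLs received a scrambled miRNA mimic and OPCs a scrambled inhibitor at 30 nM, and were collected 5 days and 24 h after transfection, whereas the methods for sequencing name lentiviral transduction with a scrambled miRNA. Stage, medium, kind of control and, by the labels, interval after transfection therefore changed together, and their parts in any difference below cannot be told apart. The study describes each replicate of a primary culture, in general, as a biological replicate from its own animal, but the labels do not tie these libraries to animals or litters, so p-values measure the spread between these libraries. In bulk RNA, a lower level from fewer cells of a type cannot be told apart from less RNA per cell.

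Gene counts totalled 40670311 and 33505668 in OLs and 40012500 and 34119782 in OPCs. Levels are given as CPM, counts scaled to a common depth by the TMM method over the 10 libraries, always in the order replicate 1, replicate 2, and where a gene rose or fell between pairs of values, the OPC pair comes first. Fold changes are log2 values of OL over OPC with their standard error after ±. CPM is not corrected for transcript length, so levels were compared between libraries and not between genes. Over the genes tested, log2(CPM + 1) correlated at 0.991 between the OL libraries, at 0.997 between the OPC libraries and at 0.887 to 0.897 between libraries of different groups. Replicates differed beyond counting error in both groups, with a chi-square of 65.7 per degree of freedom for the OL pair and 11 for the OPC pair. The 10 most abundant genes of each library took 6.08% and 7.1% of its counts in OLs and 4.31% and 4.56% in OPCs.

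Markers of other cells and of an antiviral state moved with the groups and are given before the results. Of the 20 astrocyte markers, 18 rose and 1 fell in OLs (2 fell without OL miR-ctl replicate 1), and their summed level was 10630 and 11100 CPM in the OL libraries and 1694 and 1637 CPM in the OPC libraries. Gfap, the astrocyte intermediate filament, was at 4795 and 4173 CPM in OLs and 8.13 and 7.799 CPM in OPCs. Of the 20 microglia markers, 3 rose and 11 fell (5 rose without OL miR-ctl replicate 1), and their sum was 691 and 963 CPM in the OL libraries and 2251 and 2079 CPM in the OPC libraries. The microglial receptors P2ry12 and Cx3cr1 were not among the 11 that fell and do not stand for the list. They were low in both groups, at 2.29 and 2.55 CPM in OLs and 2.12 and 2.05 CPM in OPCs and at 4.95 and 4.998 CPM in OLs and 4.27 and 2.82 CPM in OPCs. With OPC anti-miR-145 as the OPC group, 16 microglia markers were called lower in OLs and 1 higher. The log2 fold changes of P2ry12 and Cx3cr1 were negative there. Of the 40 tested genes of the interferon response, 39 fell in OLs, and their sum was 637 and 558 CPM in the OL libraries and 5816 and 5688 CPM in the OPC libraries. In OPC anti-miR-145, the second OPC group, the interferon sum was 1519 and 1456 CPM, so the level in OPC anti-miR-ctl was not that of every OPC culture of the series. Of 13 neuron markers 9 fell and 1 rose, and of 9 Schwann cell markers 2 fell and 6 rose (3 without OPC anti-miR-ctl replicate 2). The neuron list summed to 362 and 322 CPM in the OL libraries and 985 and 1003 CPM in the OPC libraries, the endothelial list to 37.5 and 41.3 CPM in the OL libraries and 47.2 and 42.5 CPM in the OPC libraries, and the fibroblast and mural list to 45.6 and 36.8 CPM in the OL libraries and 12.6 and 12.1 CPM in the OPC libraries. The Schwann cell list also holds Sox10 and Ngfr, given below among lineage factors and growth factor receptors. Sox10 alone made up most of the summed level of that list. The part of other cells and of the antiviral state in the differences below was not tested.

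**Figure D1:**
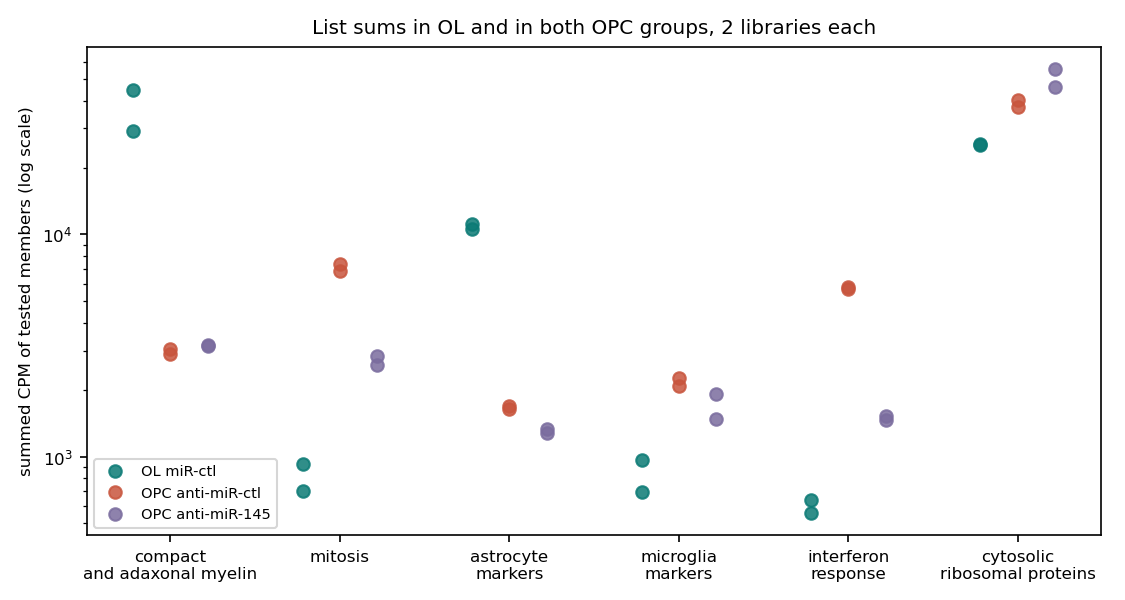
Summed CPM (log scale) of the tested members of 6 gene lists, with 1 point per library for OL miR-ctl, OPC anti-miR-ctl and OPC anti-miR-145 (2 libraries each). Myelin and astrocyte sums are highest in the OL libraries, and mitosis and interferon sums are highest in the OPC anti-miR-ctl libraries, above those of OPC anti-miR-145.

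Of 23487 genes in the table, 4811 had no count in these 4 libraries and 15721 passed the filter of at least 5 counts in at least 2 libraries. With the quasi-likelihood test of edgeR and adjustment after Benjamini and Hochberg, 9042 of the 15721 (57.5%) were called at an adjusted p under 0.05, 4531 (28.8%) higher and 4511 (28.7%) lower in OLs. Scaling by library totals alone shifted the median log2 fold change of all genes from 0.007 to -0.121, and folds are to be read relative to that median. It called 3777 genes higher and 5330 lower, so that 41.5% of its calls were higher, against 50.1% with TMM scaling. The shares of 57.5%, 28.8% and 28.7% are the background against which every list is read. The lists were chosen with earlier results of these data known. DESeq2 called 8388 genes. The libraries of the groups did not overlap for 6558 genes higher and 6304 lower in OLs. Among called genes, 2279 rose and 2398 fell by more than 2-fold, 1142 rose and 1310 fell by more than 4-fold, and 360 rose and 364 fell by more than 16-fold. Without OPC anti-miR-ctl replicate 1 or 2, when the spread comes from the OL pair, 5071 or 5016 genes were called. A lone library is assumed there to vary as the other group did. Without an OL library the spread comes from the OPC pair alone, which differed less, so such calls hold no spread between OLs. The count was 10591 and 10336 without OL miR-ctl replicate 1 or 2.

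**Figure D2:**
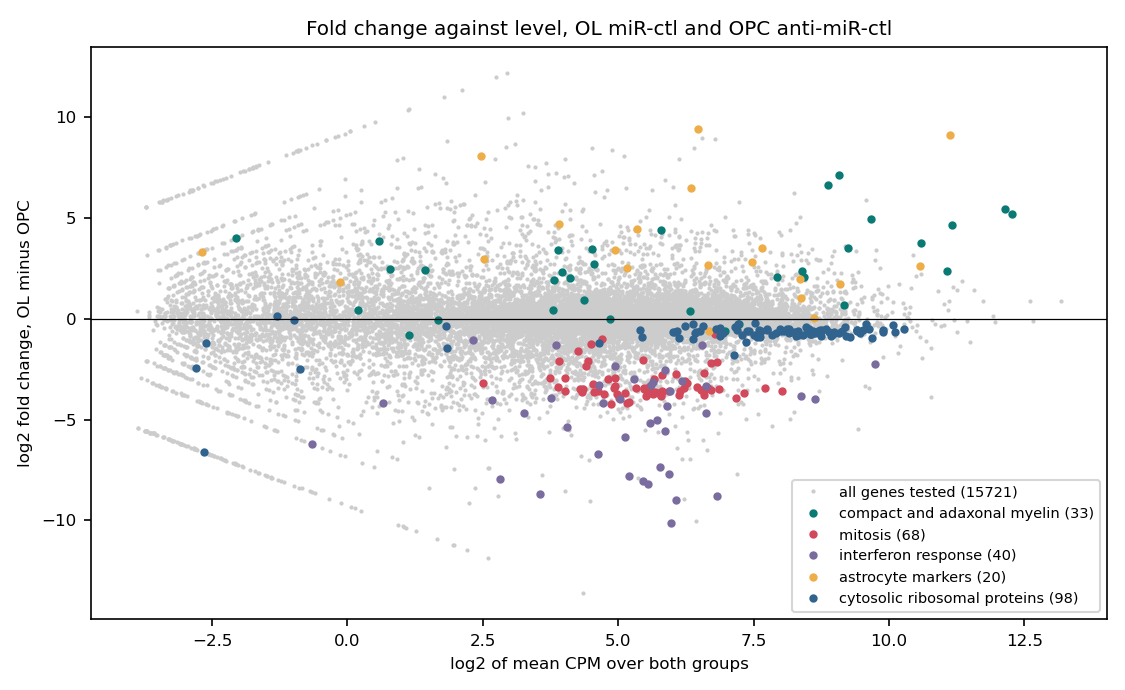
Log2 fold change (OL minus OPC) against the log2 of the mean CPM of both groups, with 1 point per gene tested and 5 gene lists in colour. The diagonal rows of points at the left are genes with no or few counts in a whole group, whose fold depends on the prior count of the fit. Mitosis and interferon members lie below 0, and ribosomal protein genes form a narrow band just below 0.

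**Figure D3:**
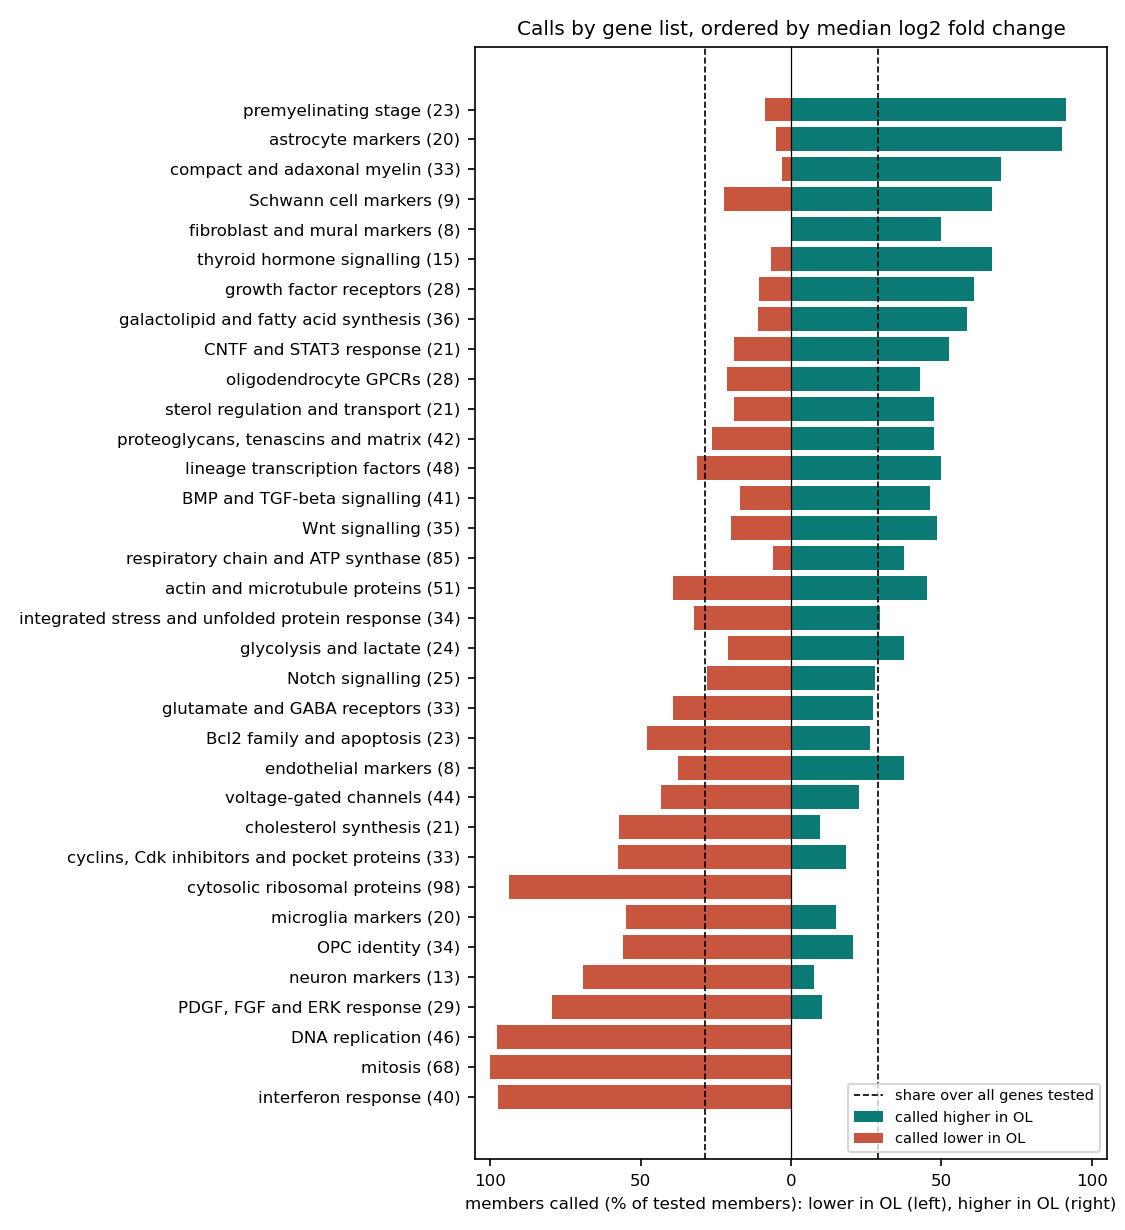
Share of the tested members (number in brackets) of each gene list called higher (right) or lower (left) in OLs, ordered by the median log2 fold change. Dashed lines mark the shares over the 15721 genes tested, 28.8% higher and 28.7% lower. Bars of mitosis, DNA replication and interferon response reach almost to the left end, and those of the premyelinating stage and of astrocyte markers extend furthest to the right.

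OPC identity genes were lower in OLs, but not as a block. Of 34 tested genes, 19 fell and 7 rose, with a median log2 fold change of -1.13. Pdgfra, the receptor for PDGFAA, was at 265 and 186 CPM in OLs and 903 and 907 CPM in OPCs, and Cspg4, the NG2 proteoglycan, was at 92.7 and 56.1 CPM in OLs and 569 and 559 CPM in OPCs. Both were lower in each OL library than in either OPC library (for Pdgfra, log2 fold change -2.02 ± 0.18, edgeR adjusted p = 0.000624, and for Cspg4, log2 fold change -2.93 ± 0.25, edgeR adjusted p = 0.00053). Sox11, a transcription factor of immature cells, was at 10.5 and 9.78 CPM in OLs and 54.1 and 52.4 CPM in OPCs and fell by 2.40 on the log2 scale. Rlbp1, a retinoid-binding protein, fell furthest among the members (log2 fold change -3.19 ± 0.25, edgeR adjusted p = 0.000391). Ptprz1, a receptor phosphatase that stays abundant in the lineage, fell by less, from 2276 and 2210 CPM to 1253 and 872 CPM. In the other direction, Tnr, the matrix glycoprotein tenascin-R, was at 1998 and 1018 CPM in OLs and 27.2 and 23.3 CPM in OPCs (log2 fold change 5.88 ± 0.39, edgeR adjusted p = 0.000239). The proteoglycan Bcan rose as well, from 333 and 322 to 1110 and 812 CPM. The count of members that rose was 3 and 4 without OPC anti-miR-ctl replicate 1 or 2.

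Genes of the premyelinating stage, which mark newly formed OLs, rose as a group. Of 23 tested, 21 rose and 2 fell, with a median log2 fold change of 3.52. Enpp6, a choline phosphodiesterase of newly formed OLs, was at 179 and 260.3 CPM in OLs and 0.577 and 0.301 CPM in OPCs. It was close to absent in both OPC libraries (log2 fold change 8.91 ± 0.34, edgeR adjusted p = 6.32e-05). Bmp4, a secreted ligand made by committed precursors, was at 354 and 233 CPM in OLs and 5.24 and 5.45 CPM in OPCs. Gpr17, a receptor that marks cells at the premyelinating checkpoint, was at 375 and 265 CPM in OLs and 25.8 and 21.4 CPM in OPCs (log2 fold change 3.74 ± 0.21, edgeR adjusted p = 0.000155). Bcas1 was already present in OPCs, at 518 and 558 CPM, and was at 3019 and 2083 CPM in OLs. Fyn, a kinase that acts in process outgrowth, was at 1411 and 1224 CPM in OLs and 467 and 474 CPM in OPCs. Bmp4, Gpr17, Bcas1 and Fyn were each higher in OL replicate 1 than in OL replicate 2, and Enpp6 was the other way round. The members that fell were Fam107b (log2 fold change -1.41 ± 0.14, edgeR adjusted p = 0.000824) and Cemip2 (log2 fold change -1.05 ± 0.11, edgeR adjusted p = 0.00112).

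Myelin genes rose in part. Of 33 tested genes of compact and adaxonal myelin, 23 rose, 1 fell and 9 were not called, with a median log2 fold change of 2.37. Mbp, the myelin basic protein, was at 6218 and 13120 CPM in OLs and 248 and 279 CPM in OPCs (log2 fold change 5.18 ± 0.41, edgeR adjusted p = 0.000435). Mag, the adhesion molecule of the inner myelin wrap, was at 623 and 1238 CPM in OLs and 9.095 and 9.19 CPM in OPCs, and Cldn11, which forms the tight junctions of the sheath, was at 730.3 and 1428 CPM in OLs and 7.23 and 8.05 CPM in OPCs (log2 fold change 7.13 ± 0.41, edgeR adjusted p = 0.000165). For each of these 3 genes, OL replicate 2 was near or above 1.9 times replicate 1, while the OPC replicates lay close together. Mobp was at 14.9 and 68.7 CPM in OLs and 3.26 and 4.27 CPM in OPCs and Opalin at 13.8 and 38.4 CPM in OLs and 4.27 and 6.08 CPM in OPCs, and both rose. The calls for Mobp (edgeR adjusted p = 0.0852 and 0.0703) and Opalin (edgeR adjusted p = 0.0887 and 0.0592) were lost without OPC anti-miR-ctl replicate 1 or 2. Mog, a marker of mature myelin, was at 9.19 and 23.2 CPM in OLs and 11.5 and 11.9 CPM in OPCs, so its OL libraries lay on either side of the OPC libraries (log2 fold change 0.46 ± 0.42, edgeR adjusted p = 0.401). Mal was at 0.552 and 5.27 CPM in OLs and 0.623 and 0.411 CPM in OPCs and Ermn at 0.803 and 5.52 CPM in OLs and 2.79 and 3.69 CPM in OPCs, and neither was called. The log2 fold change of Mog was 0.98 without OL miR-ctl replicate 1 and -0.36 without OL miR-ctl replicate 2. That of Mal was 3.32 without OL miR-ctl replicate 1. That of Ermn was 0.76 without OL miR-ctl replicate 1 and -2.02 without OL miR-ctl replicate 2. Against OPC anti-miR-145, Mal was called higher (log2 fold change 3.73, edgeR adjusted p = 0.0234). Omg, an adaxonal inhibitor of outgrowth, was the member that fell (log2 fold change -0.58 ± 0.10, edgeR adjusted p = 0.00577). The call for Omg (edgeR adjusted p = 0.0619) was lost without OPC anti-miR-ctl replicate 2. Of the whole list, 5 members were called lower without OL miR-ctl replicate 2.

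**Figure D4:**
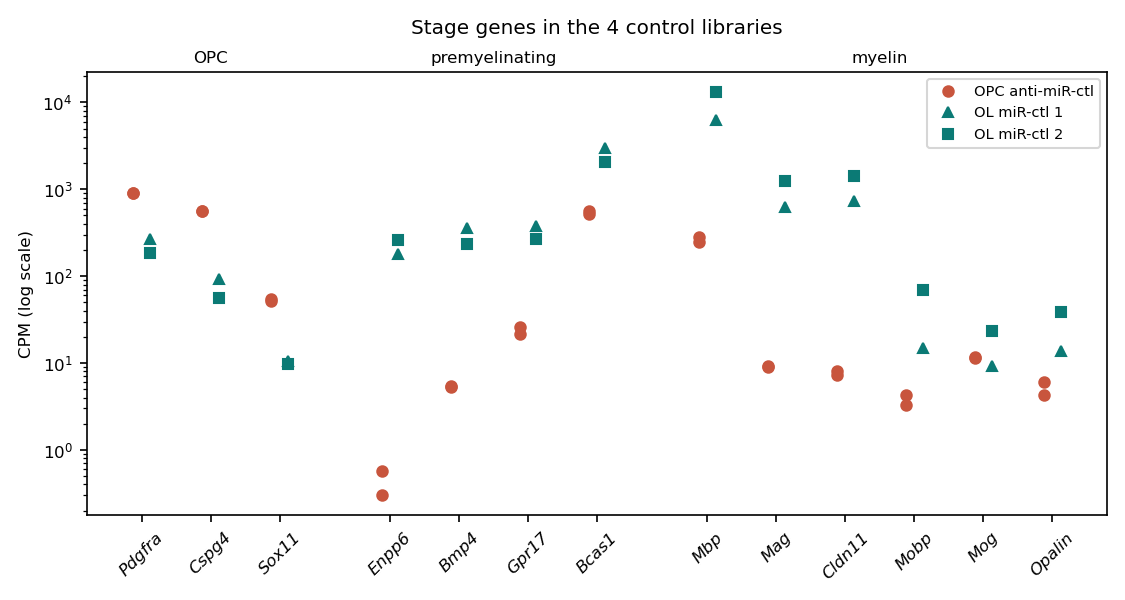
CPM (log scale) of 13 stage genes in each of the 4 libraries, in 3 groups from OPC to myelin. OPC genes are higher in the OPC libraries, premyelinating genes and the major myelin genes are higher in both OL libraries, and for Mog the OL libraries lie on either side of the OPC libraries.

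The OL libraries themselves differed in stage genes. Over the tested members, replicate 2 lay above replicate 1 for 26 of 33 myelin genes and below it for 33 of 34 OPC identity genes, 63 of 68 mitosis genes and 20 of 21 cholesterol synthesis genes. The median difference of replicate 2 from replicate 1 on the log2(CPM + 1) scale was 0.85 for myelin, -0.51 for OPC identity, -0.46 for mitosis and -0.50 for cholesterol synthesis, against 0 over all genes tested. Of the 20 microglia markers, 19 were also higher in replicate 2, with a median difference of 0.42. The OPC replicates differed by 0.13 or less in the median of every gene list. The spread of the OL pair enters every test of these genes.

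**Figure D5:**
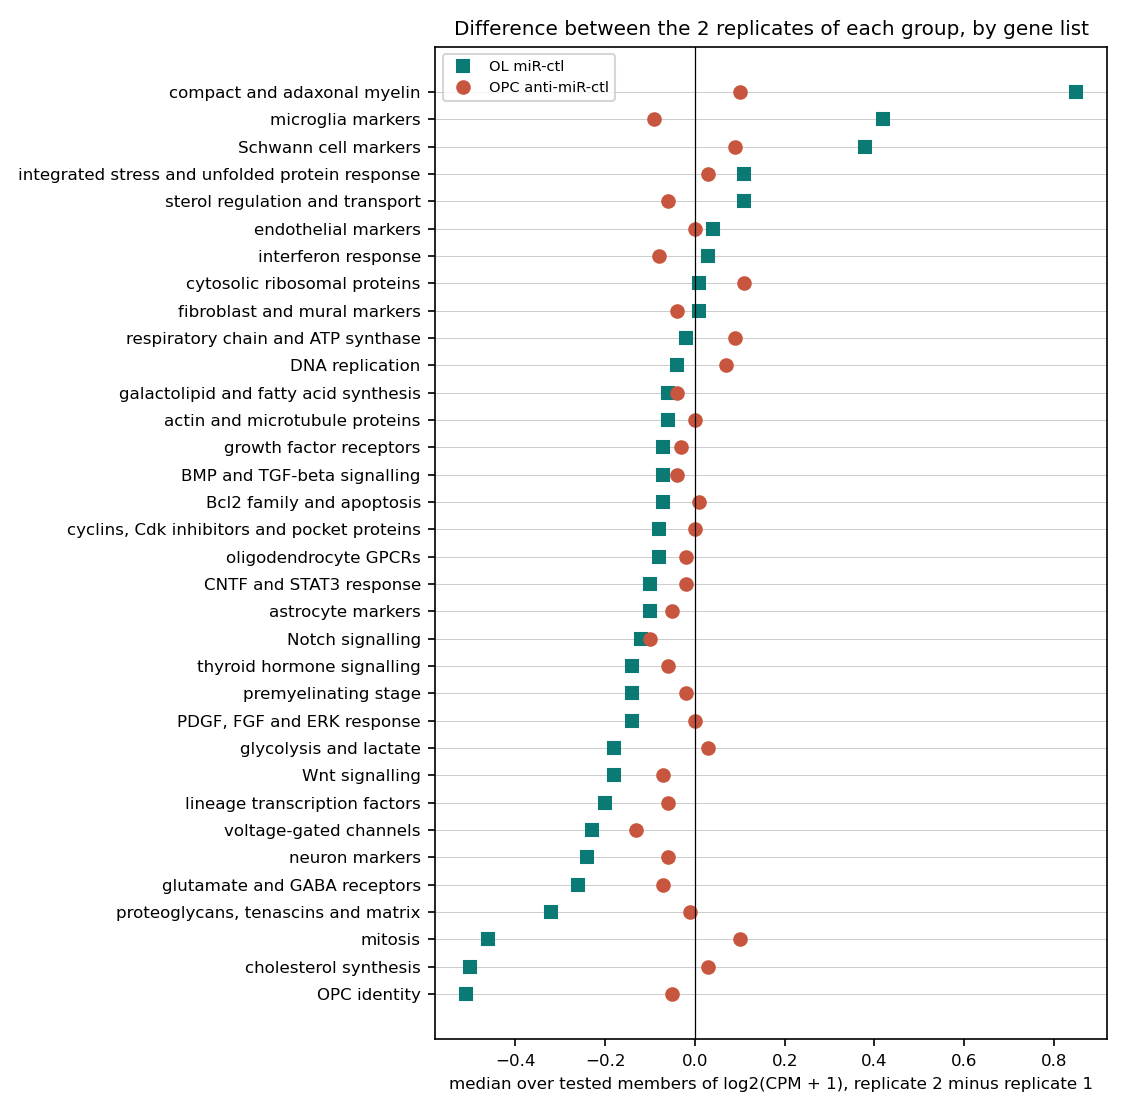
Median difference of replicate 2 from replicate 1 on the log2(CPM + 1) scale over the tested members of each list, for OL miR-ctl (squares) and OPC anti-miR-ctl (circles). The OL difference runs from -0.51 for OPC identity to 0.85 for compact and adaxonal myelin, and the OPC differences stay within 0.13 of 0.

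Transcription factors of the lineage changed in both directions, with 24 of 48 tested genes up and 15 down. Myrf, which switches on myelin genes, was at 575 and 677 CPM in OLs and 86.7 and 75.1 CPM in OPCs (log2 fold change 2.94 ± 0.13, edgeR adjusted p = 8.58e-05). Sox10, needed throughout the lineage, was at 669 and 668 CPM in OLs and 470.2 and 440.2 CPM in OPCs and rose by less (log2 fold change 0.54 ± 0.08, edgeR adjusted p = 0.00344). Olig2, the basic helix-loop-helix factor that specifies the lineage, was at 411 and 351 CPM in OLs and 492 and 488 CPM in OPCs, and Olig1 was at 685 and 660.4 CPM in OLs and 1715 and 1648 CPM in OPCs. Both fell, Olig1 by more (for Olig2, log2 fold change -0.38 ± 0.10, edgeR adjusted p = 0.0262, and for Olig1, log2 fold change -1.33 ± 0.08, edgeR adjusted p = 0.00019). The call for Sox10 (edgeR adjusted p = 0.07) was lost without OPC anti-miR-ctl replicate 2. The call for Olig2 (edgeR adjusted p = 0.159 and 0.149) was lost without OPC anti-miR-ctl replicate 1 or 2. Against OPC anti-miR-145, Sox10 was not called (log2 fold change 0.22, edgeR adjusted p = 0.167). Nkx2-2 rose from 40.3 and 36.4 to 109.6 and 73.6 CPM, Nkx6-2 from 2.29 and 2.76 to 22.2 and 31.8 CPM, and Zfp488 from 12.7 and 12.04 to 95.4 and 71.4 CPM. Against OPC anti-miR-145, Nkx2-2 was not called (log2 fold change 0.40, edgeR adjusted p = 0.13). Of the Id genes, whose proteins bind and block basic helix-loop-helix factors, Id2, Id3 and Id4 rose and Id1 was not called. Id3 was at 91.9 and 94.6 CPM in OLs and 21.1 and 19.9 CPM in OPCs, and Id4 was at 38.5 and 42.3 CPM in OLs and 7.96 and 6.68 CPM in OPCs. The Sox genes split, with Sox8 up (log2 fold change 1.68 ± 0.14, edgeR adjusted p = 0.000534), Sox5 and Sox11 down and Sox6 not called (log2 fold change -0.23 ± 0.25, edgeR adjusted p = 0.453). Sox6 had a log2 fold change of -0.65 without OL miR-ctl replicate 1. Mycn and Hmga2, genes of immature dividing cells, were at 0.954 and 1.17 CPM in OLs and 10.6 and 11.1 CPM in OPCs and at 0.477 and 0.337 CPM in OLs and 4.32 and 4.49 CPM in OPCs, and both fell.

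The cell cycle gave the most uniform result. Of 68 tested genes of mitosis, 68 fell, with a median log2 fold change of -3.47, and of 46 tested genes of DNA replication, 45 fell and none rose, with a median of -2.45. The summed level of the mitosis list was 927 and 701 CPM in the OL libraries and 6818 and 7344 CPM in the OPC libraries. Top2a, which untangles chromosomes before they separate, was at 50.1 and 31.7 CPM in OLs and 463 and 501 CPM in OPCs, and Mki67, the antigen used to mark cycling cells, was at 44.1 and 27.6 CPM in OLs and 371 and 397 CPM in OPCs (log2 fold change -3.43 ± 0.24, edgeR adjusted p = 0.000278). The mitotic kinase Cdk1 was at 16.04 and 9.87 CPM in OLs and 171 and 189 CPM in OPCs. Among the replication genes, Mcm5 of the replicative helicase was at 10.5 and 9.78 CPM in OLs and 162 and 169 CPM in OPCs (log2 fold change -4.04 ± 0.09, edgeR adjusted p = 3.07e-05), and Rrm2, which makes deoxynucleotides, was at 7.41 and 3.96 CPM in OLs and 109.6 and 111 CPM in OPCs. Gins2 was the member not called, at 43.2 and 43.1 CPM in OLs and 41.6 and 43.1 CPM in OPCs. In OPC anti-miR-145 the mitosis sum was 2577 and 2851 CPM, between the OLs and the OPC controls. With those libraries as the OPC group, 67 of the 68 mitosis genes and 42 of the 46 replication genes fell, with medians of -2 and -1.48. Against OPC anti-miR-145, Gins2 was called higher (log2 fold change 0.49, edgeR adjusted p = 0.0199).

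Promoters were searched for lists for which a regulatory element is textbook knowledge. Members of the mitosis, DNA replication and interferon lists moved together, and those of cholesterol synthesis did so less uniformly. The sequences come from RefSeq (build GRCr8), cover 250 bases before to 50 bases after an annotated start, and were searched on both strands. Promoters of the table were matched by symbol to 59 mitosis, 39 DNA replication, 16 cholesterol synthesis and 30 interferon genes that were tested. The cell cycle homology region (TTTGAA or TTCGAA) was found for 74.6% of the mitosis genes, against 21.0% of all 27457 genes in the table, and the CCAAT box for 72.9% against 39.6%. An E2F site (TTTGGCGC, TTTCCCGC, TTTGCCGC or TTTCGCGC) was found for 48.7% of the replication genes, against 2.37% of all genes. A core of the interferon-stimulated response element (GAAANNGAA) was found for 70.0% of the interferon genes, against 10.3%. A sterol regulatory element (TCACCCCAC or TCACNCCAC) was found for 0 of the 16 cholesterol synthesis genes, against 1.25% of all genes. With so low a share over all genes, 0 of 16 cannot show whether the list differs, and other forms of the element were not searched. The motif shares compare these lists with every gene of the promoter table and were not tested.

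For each list with a match, the 2 called members with the smallest p that held the motif are printed, with motif letters in capitals. In the mitosis promoters the capitals mark the cell cycle homology region (TTCAAA here, the reverse complement of TTTGAA) and CCAAT boxes (also as the reverse complement ATTGG). Cep55, which completes the separation of daughter cells, fell from 29.2 and 30.6 to 2.59 and 2.48 CPM, and its promoter lies at chr1:245245113-245245412 (plus strand). Kif22, a chromosome-associated kinesin, fell from 172 and 198 to 18.2 and 16.4 CPM, with its promoter at chr1:191080829-191081128 (minus strand).
Cep55: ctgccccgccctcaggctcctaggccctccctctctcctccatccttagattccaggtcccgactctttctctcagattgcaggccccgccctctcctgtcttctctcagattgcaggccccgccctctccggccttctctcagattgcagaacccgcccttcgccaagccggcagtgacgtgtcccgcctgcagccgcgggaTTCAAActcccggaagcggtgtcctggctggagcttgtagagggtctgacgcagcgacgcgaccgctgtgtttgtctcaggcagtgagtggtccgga
Kif22: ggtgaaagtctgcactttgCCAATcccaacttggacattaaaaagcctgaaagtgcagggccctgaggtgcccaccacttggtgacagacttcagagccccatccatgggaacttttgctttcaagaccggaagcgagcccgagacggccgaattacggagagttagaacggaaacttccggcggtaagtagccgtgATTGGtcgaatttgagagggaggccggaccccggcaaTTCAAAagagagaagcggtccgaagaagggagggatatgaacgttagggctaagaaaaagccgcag

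The match begins 47 bases before the start in Cep55 and 16 bases before it in Kif22. In the DNA replication promoters the capitals mark E2F sites, some of which overlap on opposite strands. The helicase subunit genes Mcm5 and Mcm6 have promoters at chr19:13488563-13488862 (plus strand) and at chr13:42404303-42404602 (minus strand), and Mcm6 fell from 202 and 211 to 20.01 and 18.2 CPM.
Mcm5: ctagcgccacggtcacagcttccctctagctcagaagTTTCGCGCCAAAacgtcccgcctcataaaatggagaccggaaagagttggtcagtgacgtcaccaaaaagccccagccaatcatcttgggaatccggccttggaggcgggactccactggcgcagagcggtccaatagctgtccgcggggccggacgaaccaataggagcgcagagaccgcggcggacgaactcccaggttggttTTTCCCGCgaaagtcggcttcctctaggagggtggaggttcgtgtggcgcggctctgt
Mcm6: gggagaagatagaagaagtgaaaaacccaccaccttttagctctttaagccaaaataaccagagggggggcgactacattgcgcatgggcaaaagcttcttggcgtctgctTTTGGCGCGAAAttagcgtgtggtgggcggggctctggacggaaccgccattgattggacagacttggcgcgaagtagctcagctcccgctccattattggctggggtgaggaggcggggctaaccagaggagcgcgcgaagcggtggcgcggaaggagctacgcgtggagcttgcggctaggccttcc

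In the interferon promoters the capitals mark the response element core, which begins 41 and 35 bases before the start in Oas1a and 25 bases before and 27 bases after it in Ifi44. The promoter of Oas1a, an oligoadenylate synthetase that senses double-stranded RNA, lies at chr12:41330216-41330515 (plus strand), and that of Ifi44 at chr2:243303791-243304090 (minus strand). Oas1a was at 0.352 and 0.307 CPM in OLs and 89.5 and 86.5 CPM in OPCs, and Ifi44 was at 3.16 and 3.097 CPM in OLs and 104 and 99.2 CPM in OPCs.
Oas1a: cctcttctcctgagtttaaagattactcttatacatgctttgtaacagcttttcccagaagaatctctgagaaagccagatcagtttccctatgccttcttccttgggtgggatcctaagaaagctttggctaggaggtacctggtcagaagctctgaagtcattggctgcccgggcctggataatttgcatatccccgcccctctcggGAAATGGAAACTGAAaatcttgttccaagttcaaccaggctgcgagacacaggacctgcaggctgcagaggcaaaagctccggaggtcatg
Ifi44: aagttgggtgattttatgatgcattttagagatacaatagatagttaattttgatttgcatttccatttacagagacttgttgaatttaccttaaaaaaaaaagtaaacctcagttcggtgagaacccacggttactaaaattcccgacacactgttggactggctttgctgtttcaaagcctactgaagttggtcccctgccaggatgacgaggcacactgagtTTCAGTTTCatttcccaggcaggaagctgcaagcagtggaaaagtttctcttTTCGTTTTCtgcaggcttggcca

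Regulators of the G1 phase changed in both directions, with 19 of 33 tested genes down and 6 up. Ccnd1, the D-type cyclin that growth factors induce, was at 252 and 199.7 CPM in OLs and 3233 and 3356 CPM in OPCs (log2 fold change -3.88 ± 0.15, edgeR adjusted p = 6.22e-05). Ccnd2 fell from 355 and 323 to 56.01 and 30.3 CPM, and Ccne1, which acts at the start of S phase, fell from 38.6 and 40.5 to 7.26 and 5.73 CPM. The inhibitors of Cdks did not move together. Cdkn1c, which encodes p57, was at 189 and 88.8 CPM in OLs and 4.64 and 4.32 CPM in OPCs (log2 fold change 4.94 ± 0.42, edgeR adjusted p = 0.000534). Cdkn1b, which encodes p27 and is known to time OPC exit from the cycle, was at 79.03 and 98.3 CPM in OLs and 67.3 and 67.4 CPM in OPCs (log2 fold change 0.38 ± 0.12, edgeR adjusted p = 0.043). The call for Cdkn1b (edgeR adjusted p = 0.19 and 0.194) was lost without OPC anti-miR-ctl replicate 1 or 2. Against OPC anti-miR-145, Cdkn1b was not called (log2 fold change 0.32, edgeR adjusted p = 0.0996). When library totals alone scaled the counts, Cdkn1b was not called (log2 fold change 0.25, edgeR adjusted p = 0.122). Cdkn1a, Cdkn2a and Cdkn2c fell, and Cdkn1a was at 193 and 258 CPM in OLs and 509 and 508 CPM in OPCs. The growth arrest gene Gadd45b rose from 14.5 and 13.9 to 148 and 219 CPM.

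Genes induced by PDGF, FGF and the ERK cascade were lower in OLs. Of 29 tested, 23 fell and 3 rose, with a median log2 fold change of -1.83. Spry4, a feedback inhibitor of receptor tyrosine kinases, was at 18.3 and 10.3 CPM in OLs and 377 and 364 CPM in OPCs (log2 fold change -4.70 ± 0.29, edgeR adjusted p = 0.000196). The ERK phosphatase Dusp6 was at 31.6 and 25.6 CPM in OLs and 208 and 210.0 CPM in OPCs, and the ETS factor Etv5 was at 50.3 and 32.1 CPM in OLs and 256 and 240.3 CPM in OPCs. The immediate early gene Egr1 fell (log2 fold change -4.16 ± 0.18, edgeR adjusted p = 7.92e-05), while Fos, from the same class, was at 93.9 and 146 CPM in OLs and 30.8 and 31.3 CPM in OPCs and rose (log2 fold change 1.94 ± 0.22, edgeR adjusted p = 0.00139). With OPC anti-miR-145 as the OPC group, 24 of the 29 fell and 1 rose. Against OPC anti-miR-145, Fos was not called (log2 fold change 0.35, edgeR adjusted p = 0.205).

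Receptors for growth factors were mostly higher in OLs, with 17 of 28 up and 3 down, Pdgfra among the latter (5 down without OL miR-ctl replicate 1). Fgfr2, the fibroblast growth factor receptor of differentiated OLs, was at 207 and 329 CPM in OLs and 14.8 and 15.9 CPM in OPCs (log2 fold change 4.11 ± 0.26, edgeR adjusted p = 0.0002), while Fgfr1, the receptor of progenitors, was at 330.0 and 378 CPM in OLs and 249.7 and 244 CPM in OPCs and rose by less. Erbb3, a neuregulin receptor, was at 375 and 569 CPM in OLs and 49.8 and 54.4 CPM in OPCs (log2 fold change 3.17 ± 0.22, edgeR adjusted p = 0.000294). Ret, a receptor for glial-derived neurotrophic factors, was at 24.5 and 19.5 CPM in OLs and 0.162 and 0.219 CPM in OPCs, near the floor in OPCs. Ngfr, the p75 neurotrophin receptor, was at 38.8 and 114 CPM in OLs and 3.42 and 3.804 CPM in OPCs, and OL replicate 2 was far above replicate 1. The receptor chains for CNTF rose together, with Lifr at 41.3 and 32.3 CPM in OLs and 9.37 and 9.22 CPM in OPCs, Il6st at 232 and 303 CPM in OLs and 63.3 and 62.3 CPM in OPCs and Cntfr at 55.7 and 82.4 CPM in OLs and 43.03 and 39.2 CPM in OPCs. The calls for Fgfr1 (edgeR adjusted p = 0.0762 and 0.0911) and Cntfr (edgeR adjusted p = 0.097 and 0.141) were lost without OPC anti-miR-ctl replicate 1 or 2. Against OPC anti-miR-145, Fgfr1 was not called (log2 fold change -0.06, edgeR adjusted p = 0.743). Pdgfrb and Egfr, which also mark other cell types, rose from 0.139 and 0.246 to 2.66 and 2.33 CPM and from 0.623 and 1.04 to 5.799 and 3.71 CPM.

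Thyroid hormone genes were higher in OLs, which had T3 in the medium, and the part of T3 in this was not tested. Of 15 tested, 10 rose and 1 fell, with a median log2 fold change of 1.43. The members that fell numbered 3 and 2 without OL miR-ctl replicate 1 or 2. Thrb, the beta receptor, was at 96.96 and 87.1 CPM in OLs and 3.95 and 4.57 CPM in OPCs (log2 fold change 4.42 ± 0.12, edgeR adjusted p = 4.38e-05), and Thra, the alpha receptor, was at 321 and 379 CPM in OLs and 133 and 124 CPM in OPCs. The responsive factor Klf9 was at 94.4 and 85.7 CPM in OLs and 18.9 and 19.8 CPM in OPCs (log2 fold change 2.21 ± 0.09, edgeR adjusted p = 7.09e-05), and Hr, a corepressor induced by T3, was at 634 and 413 CPM in OLs and 195 and 191 CPM in OPCs. Dio3, the deiodinase that inactivates T3, was at 11.6 and 14.7 CPM in OLs and 0.0231 and 0.0821 CPM in OPCs (log2 fold change 7.93 ± 0.38, edgeR adjusted p = 0.000104). Nrgn, neurogranin, which T3 induces in neurons, was the member that fell, from 17.4 and 15.95 to 0.377 and 0.276 CPM. In OPC anti-miR-145 the comparison gave 8 members up and 1 down, with a median of 0.57. Against OPC anti-miR-145, Hr was not called (log2 fold change 0.35, edgeR adjusted p = 0.194).

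Of 21 tested genes of the CNTF and STAT3 response, 11 rose and 4 fell. Gfap led the list (log2 fold change 9.12 ± 0.15, edgeR adjusted p = 3.07e-05), and the summed level of the whole astrocyte list rose with it, as given above. Osmr, the oncostatin receptor, was at 13.1 and 10.5 CPM in OLs and 2.03 and 1.94 CPM in OPCs, and Timp1, a protease inhibitor of reactive glia, was at 54.98 and 67.1 CPM in OLs and 19.02 and 19.8 CPM in OPCs. Both rose, but against OPC anti-miR-145 Timp1 was called lower in OLs (log2 fold change -0.58, edgeR adjusted p = 0.0195). Stat3 itself was at 393 and 371 CPM in OLs and 376 and 368 CPM in OPCs, and Socs3, its feedback inhibitor, was at 9.39 and 9.63 CPM in OLs and 9.88 and 10.1 CPM in OPCs, and neither was called. Against OPC anti-miR-145, Stat3 was called lower (log2 fold change -0.65, edgeR adjusted p = 0.00481). Against OPC anti-miR-145, Socs3 was called lower (log2 fold change -1.41, edgeR adjusted p = 0.000344). C3, a complement component, was at 21.5 and 14.9 CPM in OLs and 602 and 515 CPM in OPCs and fell (log2 fold change -4.95 ± 0.22, edgeR adjusted p = 8.37e-05), beside the fall of the microglia and interferon lists.

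Signalling by BMPs and TGF-beta gave 19 of 41 tested genes up and 7 down. Bmp4 rose, as described, and so did the inhibitory Smads, with Smad6 at 2.89 and 3.47 CPM in OLs and 0.0462 and 0.1095 CPM in OPCs and Smad7 at 30.2 and 36.4 CPM in OLs and 6.07 and 5.801 CPM in OPCs (log2 fold change 2.47 ± 0.14, edgeR adjusted p = 0.000149). Tgfb2 was at 141 and 113 CPM in OLs and 23.5 and 24.4 CPM in OPCs, while Tgfb1, a ligand that microglia also make, was at 6.95 and 9.903 CPM in OLs and 55.4 and 48.5 CPM in OPCs and fell (log2 fold change -2.64 ± 0.19, edgeR adjusted p = 0.000329). Bmp7 and the antagonist Fst fell to 0.854 and 0.399 and to 0.0251 and 0.123 CPM. The number of members that fell was 12 without OL miR-ctl replicate 1 and 4 without OPC anti-miR-ctl replicate 2.

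Of 35 tested genes of Wnt signalling, 17 rose and 7 fell. Axin2, a target of beta-catenin, was at 8.06 and 5.86 CPM in OLs and 12.1 and 11.6 CPM in OPCs (log2 fold change -0.77 ± 0.19, edgeR adjusted p = 0.0178). Lef1, a nuclear partner of beta-catenin, was at 2.66 and 3.68 CPM in OLs and 12.2 and 15.2 CPM in OPCs. Both fell, while most of the called members rose, so these genes do not stand for the list. The call for Axin2 (edgeR adjusted p = 0.113 and 0.0941) was lost without OPC anti-miR-ctl replicate 1 or 2. Rnf43, which removes Frizzled receptors, was at 19.3 and 21.2 CPM in OLs and 0.6001 and 0.493 CPM in OPCs (log2 fold change 5.18 ± 0.18, edgeR adjusted p = 5.17e-05), and Daam2, a formin that acts below Wnt receptors, was at 31.7 and 32.2 CPM in OLs and 0.346 and 0.1095 CPM in OPCs (log2 fold change 7.04 ± 0.32, edgeR adjusted p = 8.99e-05). Of the receptors, Fzd1 rose from 19.6 and 20.03 to 82.2 and 75.4 CPM and Fzd9 fell from 8.91 and 8.13 to 3.77 and 2.39 CPM. The members that fell numbered 11 without OL miR-ctl replicate 1, and 3 and 3 without OPC anti-miR-ctl replicate 1 or 2.

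Notch genes gave 7 of 25 up and 7 down, near the background in both directions. The ligand Jag2 was at 158 and 79.3 CPM in OLs and 3.97 and 3.07 CPM in OPCs (log2 fold change 5.05 ± 0.40, edgeR adjusted p = 0.000439), and Dll1 was at 11.0 and 9.47 CPM in OLs and 24.6 and 23.5 CPM in OPCs. The receptor Notch3 rose from 1.36 and 0.794 to 15.6 and 10.8 CPM, and Notch1 was at 157 and 118 CPM in OLs and 154 and 130.0 CPM in OPCs and was not called. Notch1 had a log2 fold change of -0.28 without OL miR-ctl replicate 1. Hes5, the effector that represses differentiation, was at 1.23 and 0.889 CPM in OLs and 1.45 and 1.37 CPM in OPCs, low in both groups, and Hey1 was at 39.5 and 34.98 CPM in OLs and 7.48 and 8.16 CPM in OPCs. Against OPC anti-miR-145, Hes5 was called higher (log2 fold change 1.35, edgeR adjusted p = 0.0324). Of the 7 that fell, 1 and 2 were called without OPC anti-miR-ctl replicate 1 or 2.

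Enzymes of cholesterol synthesis fell or were not called, apart from a pair that rose. Of 21 tested enzymes, 12 fell and 2 rose, with a median log2 fold change of -0.46. Sqle, which makes the epoxide of squalene, was at 283 and 196 CPM in OLs and 340.3 and 348 CPM in OPCs (log2 fold change -0.54 ± 0.18, edgeR adjusted p = 0.0487). Hmgcs1, which acts early in the pathway, was at 994 and 573 CPM in OLs and 978 and 1005 CPM in OPCs and was not called. The call for Sqle (edgeR adjusted p = 0.161 and 0.179) was lost without OPC anti-miR-ctl replicate 1 or 2. Hmgcs1 had a log2 fold change of -0.80 without OL miR-ctl replicate 1. The folds were small beside the spread of the OL pair, of which replicate 2 was the lower for 20 of the 21 enzymes. With OPC anti-miR-145 as the OPC group, 17 of the 21 enzymes fell and 0 rose, with a median of -0.81. Without OPC anti-miR-ctl replicate 1 or 2, 1 and 0 of the 12 were called lower and none of the 2 higher. Uptake and regulation changed otherwise, with 10 of 21 tested genes up and 4 down. Abca1, which exports cholesterol, was at 750.4 and 723 CPM in OLs and 149 and 143 CPM in OPCs (log2 fold change 2.33 ± 0.08, edgeR adjusted p = 5.35e-05), and Apoe, the lipoprotein that carries it, was at 3486 and 4752 CPM in OLs and 1131 and 1052 CPM in OPCs. The regulator Srebf1 rose from 25.8 and 24.6 to 79.6 and 70.7 CPM while Srebf2 fell from 274 and 261 to 208 and 172 CPM. The call for Srebf2 (edgeR adjusted p = 0.105 and 0.0781) was lost without OPC anti-miR-ctl replicate 1 or 2. These counts were 6 and 6 up and 2 and 2 down without OPC anti-miR-ctl replicate 1 or 2, and 7 down without OL miR-ctl replicate 2.

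Enzymes of galactolipids and fatty acids were higher more often than lower, with 21 of 36 up and 4 down. Ugt8, which makes galactosylceramide, the main glycolipid of myelin, was at 703 and 762 CPM in OLs and 96.4 and 94.5 CPM in OPCs (log2 fold change 2.93 ± 0.09, edgeR adjusted p = 4.65e-05), and Fa2h, which hydroxylates its fatty acid, was at 99.97 and 63.8 CPM in OLs and 2.63 and 2.93 CPM in OPCs (log2 fold change 4.87 ± 0.27, edgeR adjusted p = 0.000147). Gal3st1, which makes sulfatide from it, was at 77.4 and 58.9 CPM in OLs and 77.4 and 71.7 CPM in OPCs and was not called. Gal3st1 had a log2 fold change of -0.35 without OL miR-ctl replicate 1. Elovl1 and Elovl7, which lengthen fatty acids, rose, and Elovl1 was at 121 and 180.4 CPM in OLs and 77.4 and 76.9 CPM in OPCs. The call for Elovl1 (edgeR adjusted p = 0.0659 and 0.0688) was lost without OPC anti-miR-ctl replicate 1 or 2. The synthase Fasn was at 961 and 725 CPM in OLs and 1078 and 1001 CPM in OPCs and was not called. Fasn had a log2 fold change of -0.53 without OL miR-ctl replicate 1. Without OPC anti-miR-ctl replicate 1 or 2, 11 and 11 members were called higher, and without OL miR-ctl replicate 1, 10 were called lower.

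Ribosomal protein genes fell together, most by a small amount. Of 98 tested gene entries, 92 fell and none rose, also when library totals alone scaled the counts (93 fell), with a median log2 fold change of -0.64 and a sum of 25140 and 25510 CPM in the OL libraries and 37380 and 40120 CPM in the OPC libraries. Rps4x was at 579 and 547 CPM in OLs and 1050 and 1130 CPM in OPCs, and Rplp0 was at 1037 and 1049 CPM in OLs and 1420 and 1470 CPM in OPCs. The call for Rplp0 (edgeR adjusted p = 0.0654 and 0.081) was lost without OPC anti-miR-ctl replicate 1 or 2. Several symbols stand on more than 1 gene identifier, and counts of near-identical copies may be split between them. Without OPC anti-miR-ctl replicate 2, 60 were called. The sum in OPC anti-miR-145 was 55440 and 46220 CPM, above that of the OPC controls. Subunits of the respiratory chain and ATP synthase stayed closer together, with 32 of 85 up, 5 down and a median of 0.19. The complex II subunits Sdha and Sdhc were at 245 and 238 CPM in OLs and 155 and 151 CPM in OPCs and at 322 and 318 CPM in OLs and 189.9 and 199 CPM in OPCs, and both rose. When library totals alone scaled the counts, 16 subunits rose. With OPC anti-miR-145 as the OPC group, 7 subunits rose and 7 fell, with a median of 0.04. Of the 32 that rose, 4 and 7 were called without OPC anti-miR-ctl replicate 1 or 2, and of the 5 that fell, 3 and 3. Without OL miR-ctl replicate 1, 9 were called lower.

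Glycolysis genes gave 9 of 24 up and 5 down. Slc16a1, the monocarboxylate transporter by which OLs pass lactate on, was at 163 and 141 CPM in OLs and 40.7 and 43.3 CPM in OPCs (log2 fold change 1.84 ± 0.10, edgeR adjusted p = 0.00014), and Pfkfb3, an activator of glycolysis, was at 338 and 317 CPM in OLs and 53.4 and 55.6 CPM in OPCs (log2 fold change 2.58 ± 0.08, edgeR adjusted p = 4.69e-05). Pkm and Pgk1 were at 562 and 489 CPM in OLs and 602 and 590.3 CPM in OPCs and at 309.7 and 334 CPM in OLs and 311 and 329.8 CPM in OPCs and were not called. Pkm had a log2 fold change of -0.30 without OL miR-ctl replicate 1. When library totals alone scaled the counts, Pkm was called lower (log2 fold change -0.32, edgeR adjusted p = 0.04). The counts were 5 and 5 up and 2 and 2 down without OPC anti-miR-ctl replicate 1 or 2, and 12 down without OL miR-ctl replicate 1.

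Voltage-gated channels were lower in OLs more often than higher, with 19 of 44 down and 10 up. Kcnj10, the inward rectifier Kir4.1 of mature glia, was at 354 and 305 CPM in OLs and 93.6 and 83.98 CPM in OPCs (log2 fold change 1.88 ± 0.11, edgeR adjusted p = 0.000174). Hcn2, a cation channel opened by hyperpolarization, rose from 13.2 and 15.4 to 71.6 and 96.8 CPM. The sodium channels Scn2a and Scn3a, which give OPCs their brief spikes, were at 6.78 and 5.67 CPM in OLs and 25.6 and 25.1 CPM in OPCs and at 7.63 and 5.34 CPM in OLs and 42.5 and 42.2 CPM in OPCs, and both fell. The potassium channel Kcnk10 fell from 64.1 and 62.3 to 8.51 and 6.47 CPM. Kcnj3 had 40 and 29 counts in the OPC libraries and 0 in both OL libraries, at least 20.9-fold lower against a floor of 3 counts over the OL pair. Of those that fell, 10 and 11 were called without OPC anti-miR-ctl replicate 1 or 2, and of those that rose, 5 without replicate 2.

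Receptors for glutamate and GABA gave 13 of 33 down and 9 up. The AMPA receptor subunits Gria3 and Gria4 fell, at 139.5 and 92.4 CPM in OLs and 285 and 285 CPM in OPCs and at 65.3 and 47.1 CPM in OLs and 139 and 139 CPM in OPCs, while Gria2, the subunit that limits calcium entry, was at 300.2 and 189 CPM in OLs and 260.2 and 247 CPM in OPCs and was not called. Gria2 had a log2 fold change of -0.44 without OL miR-ctl replicate 1 and of 0.23 without OL miR-ctl replicate 2. Grin1, the core NMDA receptor subunit, was at 4.39 and 2.61 CPM in OLs and 17.5 and 17.4 CPM in OPCs (log2 fold change -2.32 ± 0.25, edgeR adjusted p = 0.00124). Gabbr2, of the metabotropic GABA receptor, was at 226 and 152 CPM in OLs and 15.0 and 14.3 CPM in OPCs (log2 fold change 3.68 ± 0.21, edgeR adjusted p = 0.000165), and its partner Gabbr1 was at 389 and 359.6 CPM in OLs and 170.4 and 166 CPM in OPCs.

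Among G protein-coupled receptors of the lineage, 12 of 28 rose and 6 fell. The muscarinic receptor Chrm3, which acts on OPC division, was at 3.09 and 1.901 CPM in OLs and 70.2 and 71.3 CPM in OPCs (log2 fold change -4.82 ± 0.22, edgeR adjusted p = 8.94e-05). Chrm1 had 48 and 39 counts in the OPC libraries and 0 and 1 in the OL libraries, a ratio of 78.9 with a 95% counting interval of 14.2 to 3120. Lpar1, a lysophosphatidic acid receptor of differentiating OLs, was at 68.1 and 147 CPM in OLs and 4.89 and 5.17 CPM in OPCs (log2 fold change 4.40 ± 0.42, edgeR adjusted p = 0.000772). Of the sphingosine phosphate receptors, S1pr5 rose from 1.64 and 2.16 to 10.04 and 18.1 CPM, S1pr1 rose from 4.59 and 4.38 to 72.9 and 64.9 CPM, and S1pr2 fell from 108 and 114 to 40.1 and 34.95 CPM. S1pr1 and Ednra, at 25.9 and 112 CPM in OLs and 4.78 and 5.66 CPM in OPCs, are also known from astrocytes. The call for Ednra (edgeR adjusted p = 0.0659 and 0.0593) was lost without OPC anti-miR-ctl replicate 1 or 2.

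Proteoglycans and matrix genes changed in both directions, with 20 of 42 up and 11 down. Vcan, a hyaluronan-binding proteoglycan like Bcan, was at 503 and 379.6 CPM in OLs and 295 and 301 CPM in OPCs, and Sdc4, a heparan sulphate proteoglycan, was at 38.2 and 36.2 CPM in OLs and 2.22 and 2.49 CPM in OPCs, and both rose. The call for Vcan (edgeR adjusted p = 0.134 and 0.125) was lost without OPC anti-miR-ctl replicate 1 or 2. When library totals alone scaled the counts, Vcan was not called (log2 fold change 0.43, edgeR adjusted p = 0.0561). The transmembrane proteoglycans Cspg4 and Cspg5 did not follow them but fell, and Cspg5 was at 62.6 and 39.9 CPM in OLs and 285 and 287 CPM in OPCs. Lama4, a laminin chain, was at 79.5 and 47.2 CPM in OLs and 412 and 396 CPM in OPCs (log2 fold change -2.68 ± 0.25, edgeR adjusted p = 0.000772). Sparcl1, a matrix protein that astrocytes make in abundance, was at 2786 and 2205 CPM in OLs and 282 and 273 CPM in OPCs (log2 fold change 3.16 ± 0.14, edgeR adjusted p = 8.66e-05). Without OPC anti-miR-ctl replicate 1 or 2, 13 and 13 members were called higher.

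Cytoskeletal genes were split, with 23 of 51 up and 20 down. Tppp, which nucleates microtubules in OL processes, was at 239 and 250.1 CPM in OLs and 7.39 and 7.25 CPM in OPCs (log2 fold change 5.05 ± 0.09, edgeR adjusted p = 3.07e-05), and Map6d1, a microtubule-binding protein, was at 197 and 189 CPM in OLs and 9.995 and 9.797 CPM in OPCs. Among the tubulins, Tubb4a, the isotype linked to myelinating OLs, was at 1136 and 1324 CPM in OLs and 117 and 124 CPM in OPCs (log2 fold change 3.34 ± 0.12, edgeR adjusted p = 5.33e-05), while Tubb5 and Tubb2b fell, and Tubb5 was at 564 and 537 CPM in OLs and 1773 and 1756 CPM in OPCs. Actb and Tmsb4x, which sequesters actin monomers, fell from 3991 and 3923 to 1891 and 1711 CPM and from 2468 and 2500 to 652 and 667 CPM. The motor Kif21a rose from 10.1 and 8.92 to 154 and 131 CPM.

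Stress response genes gave 10 of 34 up and 11 down, near the background. Atf3 was at 72.5 and 162 CPM in OLs and 10.6 and 9.85 CPM in OPCs (log2 fold change 3.50 ± 0.41, edgeR adjusted p = 0.00157), and Ddit3, which encodes CHOP, was at 56.3 and 134 CPM in OLs and 33.7 and 39.6 CPM in OPCs, with OL replicate 2 above replicate 1 for both. Slc7a11, the cystine transporter, was at 4.09 and 2.91 CPM in OLs and 37.6 and 35.7 CPM in OPCs and fell (log2 fold change -3.39 ± 0.18, edgeR adjusted p = 0.000132). The OL medium held N-acetyl cysteine, and its part in this value was not tested. Hspa5, the chaperone BiP, was at 559 and 511 CPM in OLs and 637 and 686 CPM in OPCs and fell. The calls for Ddit3 (edgeR adjusted p = 0.159 and 0.118) and Hspa5 (edgeR adjusted p = 0.129 and 0.234) were lost without OPC anti-miR-ctl replicate 1 or 2. The counts were 4 and 4 up and 6 and 5 down without OPC anti-miR-ctl replicate 1 or 2, and 16 up without OL miR-ctl replicate 1. Of the Bcl2 family and its partners, 11 of 23 fell and 6 rose. The BH3-only gene Bmf was at 76.8 and 115 CPM in OLs and 10.9 and 10.04 CPM in OPCs (log2 fold change 3.18 ± 0.22, edgeR adjusted p = 0.000285), and Bcl2l11, which encodes Bim, was at 26.3 and 21.6 CPM in OLs and 13.5 and 13.2 CPM in OPCs, and both rose. The call for Bcl2l11 (edgeR adjusted p = 0.0503) was lost without OPC anti-miR-ctl replicate 2. Against OPC anti-miR-145, Bcl2l11 was not called (log2 fold change -0.37, edgeR adjusted p = 0.0754). Bax fell, at 109 and 102 CPM in OLs and 201 and 202 CPM in OPCs, and Pmaip1, which encodes Noxa, fell from 12.1 and 12.9 to 1.78 and 1.41 CPM. Without OPC anti-miR-ctl replicate 2, 3 of these were called higher.

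The interferon response was the list with the lowest median, -4.25, with 39 of 40 tested genes down and 1 not called. Ifit1, an antiviral RNA-binding protein, was at 0.0502 and 0.184 CPM in OLs and 129 and 123 CPM in OPCs (log2 fold change -10.13 ± 0.25, edgeR adjusted p = 3.57e-05). Irf7, the factor that amplifies interferon induction, was at 0.427 and 0.613 CPM in OLs and 239 and 214 CPM in OPCs (log2 fold change -8.79 ± 0.17, edgeR adjusted p = 3.07e-05), and Mx1, an antiviral GTPase, was at 0.678 and 0.644 CPM in OLs and 116 and 103 CPM in OPCs. Levels in OPC anti-miR-145 were lower than in OPC anti-miR-ctl for these genes, with Ifit1 at 5.23 and 7.73 CPM and Irf7 at 54.8 and 41.4 CPM. With OPC anti-miR-145 as the OPC group, 36 of 40 were called lower in OLs, with a median of -2.06. The list median against the second OPC group thus had the same sign and a smaller size, and no untreated OPCs were analysed here.

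Astrocyte markers are described in more detail because the libraries in which they rose are labelled OL. Aqp4, the water channel of astrocyte endfeet, was at 168 and 186 CPM in OLs and 0.323 and 0.164 CPM in OPCs (log2 fold change 9.43 ± 0.21, edgeR adjusted p = 3.07e-05), Gja1, connexin 43, was at 159 and 161 CPM in OLs and 1.43 and 2.13 CPM in OPCs, and Slc1a2, the glutamate transporter GLT-1, was at 202 and 148 CPM in OLs and 28.1 and 25.6 CPM in OPCs. Glul, glutamine synthetase, which OLs also express, was at 1854 and 3432 CPM in OLs and 428 and 413 CPM in OPCs. Aldh1l1, a defining astrocyte enzyme, was at 1.51 and 1.32 CPM in OLs and 0.3001 and 0.493 CPM in OPCs, low in every library, and Slc1a3, GLAST, was at 489.7 and 305 CPM in OLs and 398 and 376 CPM in OPCs and was not called. The call for Aldh1l1 (edgeR adjusted p = 0.0829) was lost without OPC anti-miR-ctl replicate 1. Slc1a3 had a log2 fold change of -0.36 without OL miR-ctl replicate 1 and of 0.32 without OL miR-ctl replicate 2. Against OPC anti-miR-145, Slc1a3 was called higher (log2 fold change 1.09, edgeR adjusted p = 0.00788). Markers of myelin and of astrocytes were thus both present in the libraries labelled OL. Bulk counts cannot say whether the same cells held both.

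Genes with the largest folds were drawn from genes called, with groups apart and at least 10 CPM in the higher group. Of the 15 that rose, Aldh1a1, a retinaldehyde dehydrogenase, was at 16.4 and 14.9 CPM in OLs and 0 and 0.0274 CPM in OPCs, and with 1 count in the OPC pair the ratio was 1260 with a 95% counting interval of 226 to 49700. Mlc1 and Slc14a1, a membrane protein of astrocyte junctions and a urea transporter, were at 176 and 198 CPM in OLs and 0.439 and 0.274 CPM in OPCs and at 166 and 171 CPM in OLs and 0.416 and 0.5199 CPM in OPCs. Ptgds, prostaglandin D synthase, which OLs make, was at 176 and 103 CPM in OLs and 0.623 and 0.493 CPM in OPCs (log2 fold change 7.93 ± 0.39, edgeR adjusted p = 0.000107), and Angptl4, an inhibitor of lipoprotein lipase, was at 78.8 and 59.1 CPM in OLs and 0.254 and 0.246 CPM in OPCs. Aqp4, Gfap, Enpp6, Chst8, Myo7b, Sulf1, Ntsr2 and Tdrd12 were also among the 15, and of these Aqp4, Gfap and Ntsr2 are on the astrocyte list.

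Of the 15 that fell furthest, Ifit1, Usp18, Irf7, Oas2, Oasl, Oas1a and Ifi44l are on the interferon list. Siglec8 had 544 and 423 counts in OPCs and 0 in both OL libraries, at least 292-fold lower against a floor of 3 counts over the OL pair. Il1b, the inflammatory cytokine, was at 0.301 and 0.307 CPM in OLs and 150.3 and 146 CPM in OPCs (log2 fold change -8.93 ± 0.12, edgeR adjusted p = 3.07e-05), and Acod1, which makes itaconate in activated macrophages, was at 0.0251 and 0.153 CPM in OLs and 46.8 and 41.7 CPM in OPCs (log2 fold change -9.01 ± 0.34, edgeR adjusted p = 6.1e-05). The others were Slfn4, Cxcl2, Tnip3, Pdcd1lg2 and Apol9a. In OPC anti-miR-145, Il1b was at 13.6 and 8.72 CPM and Acod1 at 0.880 and 0.736 CPM, far below OPC anti-miR-ctl.

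The genes that took the largest share of counts, which also reflects transcript length, changed their order. Mbp took 0.609% and 1.28% of the counts in OLs and 0.0269% and 0.0299% in OPCs. Ccnd1 took 0.350% and 0.359% in OPCs and 0.0247% and 0.0194% in OLs. Gfap and the adhesion molecule Nfasc were among the first 10 in OLs, and Actb, Vim and Tubb2b were among the first 10 in OPCs. Mt-co1, Eef1a1 and Scd2 were among the first 10 in both groups.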

How the data were processed

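Poly(A) RNA of primary rat OPCs and OLs was sequenced with a stranded kit. The authors quantified transcripts with Salmon 0.12.0 against a GENCODE Rnor6.0 annotation and summed them to genes with tximport. The deposited values are estimated counts per gene, not normalised, which were rounded to whole numbers. A second deposited table of the authors' own comparisons gave symbols and Entrez IDs alone, and its fold changes and p-values were not used. Symbols were matched to RefSeq names through Entrez IDs and synonyms.

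Groups came from the sample titles. Genes that reached 5 counts in 2 or more of the 4 libraries were fitted with edgeR 4.0.16 (R 4.3.3, limma 3.58.1) by TMM scaling and the quasi-likelihood test, with Benjamini-Hochberg adjustment at 0.05. DESeq2 1.42.0 was an alternative, with other scalings, count filters, a replicate block, a fold threshold, all groups in 1 fit, each library left out and OPC anti-miR-145 as the OPC group. The library totals of 33505668 to 40670311 counts limit precision at low levels, and floors of 3 counts and intervals cover counting error only. In simulated data for this comparison (15501 genes), the edgeR fit recovered 72 of 100 genes changed by 1 and 99 of 100 changed by 2 on the log2 scale, with 19 false calls. The changed genes were drawn from those above a minimum level, and all other genes were left unchanged. In the data, 57.5% of genes were called, so recovery there may differ.

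Named genes were members showing a list's roles, the 15 largest changes in each direction (unique symbol, groups apart, at least 10 CPM in the higher group) and the 10 largest shares of counts, and some genes these rules name are not reported here. Members and lists were chosen with earlier results of these data known. Figures were drawn with matplotlib 3.10.9.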

Additional observations from a re-analysis of the deposited data

How the results depend on the processing

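The number of genes called was 8243 to 9107 under DESeq2, other scalings, other count filters and the fit of all 5 groups, and no gene called in the main comparison was called in the opposite direction there. A test against a fold of 1.5 called 4855 (2387 higher and 2468 lower). Leaving out 1 library gave 5016 to 10591 calls, 2375 to 5284 higher and 2641 to 5307 lower. Fits without an OPC library gave the low counts, and a lone library is there assumed to vary like the other group. With OPC anti-miR-145 in place of OPC anti-miR-ctl, 7686 of 15555 genes were called, 6491 of the main calls were kept and 51 were called the other way.

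The replicate block gave 8534 calls (4261 higher and 4273 lower), and of the named genes Hspa5 lost its call. The differences between replicates 1 and 2 correlated at 0.0668 between the groups. The labels do not say whether replicates of the same number are paired. This correlation cannot decide it, because the OPC replicates differed little from each other.

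Medians that changed sign or reached 0 were those of Notch (0.17), glutamate and GABA receptors (0.13, and 0 without OL miR-ctl replicate 2) and complement (-0.20) with OPC anti-miR-145, of actin and microtubule proteins (0 when library totals alone scaled the counts) and the endothelial markers median log2 fold (0.23 at 50 counts or more, and -0.73 to 0.21 when 1 library was left out). The median of the integrated stress and unfolded protein response, 0.07, became -0.05 with library totals alone and with OPC anti-miR-145, and the chromatin and DNA methylation median log2 fold, -0.03, became 0.03 without OL miR-ctl replicate 2 or OPC anti-miR-ctl replicate 1. With OPC anti-miR-145, the log2 fold change was -0.37 for Bcl2l11, -1.36 for Cx3cr1, -0.06 for Fgfr1, 1.35 for Hes5, -0.83 for P2ry12, -0.65 for Stat3 and -0.58 for Timp1, and Cdkn1b, Fos, Hr, Nkx2-2, Sox10 and Tnf were not called. On leaving out 1 library it ran from -2.02 to 0.76 for Ermn, -0.36 to 0.32 for Slc1a3, -0.36 to 0.98 for Mog and -0.44 to 0.23 for Gria2, with each end set by an OL library. The cause of these changes was not tested.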

Other observations

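Further gene groups were assembled after the values had been seen. Some members are also on earlier lists, such as Sirt2 (myelin), Clu (astrocyte markers) and the C1q chains (microglia markers). These groups are described by counts and values alone. Of all genes tested, 57.5% were called in either direction, 28.8% higher and 28.7% lower. Genes of cytokines, chemokines and acute inflammation were lower in OLs, with 35 of 43 tested down and 4 up. Tnf, an inflammatory cytokine, was at 0.552 and 0.736 CPM in OLs and 35.2 and 33.6 CPM in OPCs (log2 fold change -5.76 ± 0.17, edgeR adjusted p = 4.44e-05). Against OPC anti-miR-145, Tnf was not called (log2 fold change -1.53, edgeR adjusted p = 0.4). Lcn2, a secreted protein of reactive astrocytes, went the other way, at 396 and 156 CPM in OLs and 29.5 and 32.02 CPM in OPCs, with OL replicate 1 above replicate 2. Genes of antigen presentation by class I molecules fell as well, with 19 of 22 down and 1 up (none up without OPC anti-miR-ctl replicate 1 or 2). Tap1, which carries peptides into the endoplasmic reticulum, was at 9.52 and 9.01 CPM in OLs and 89.8 and 87.7 CPM in OPCs (log2 fold change -3.27 ± 0.09, edgeR adjusted p = 3.97e-05). With OPC anti-miR-145 in place of OPC anti-miR-ctl, 19 of 40 cytokine genes fell and 9 rose, and 19 class I genes fell and 1 rose. The microglia and interferon lists fell in the same comparison, and their part in these values was not tested.

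Genes of fatty acid oxidation, ketone bodies and lipid droplets were higher in OLs, with 31 of 38 up and 1 down (2 down without OL miR-ctl replicate 2 and 0 without OPC anti-miR-ctl replicate 2). Cpt1a, which admits fatty acids to mitochondria, was at 368 and 348 CPM in OLs and 75.97 and 76.9 CPM in OPCs (log2 fold change 2.22 ± 0.08, edgeR adjusted p = 5.62e-05), and Hadh, an enzyme of beta oxidation, was at 97.7 and 96.6 CPM in OLs and 19.9 and 19.6 CPM in OPCs. Lysosomal genes rose more often than they fell, with 32 of 43 up and 2 down, and 4 down without OL miR-ctl replicate 2. Tfeb, the factor that drives lysosomal genes, was at 37.96 and 34.6 CPM in OLs and 5.63 and 5.45 CPM in OPCs (log2 fold change 2.70 ± 0.11, edgeR adjusted p = 6.87e-05), and Lamp1, a protein of the lysosomal membrane, was at 1378 and 1683 CPM in OLs and 479 and 487 CPM in OPCs. Of 30 tested genes of the motile cilium, 19 rose and 1 fell. Rsph1, a radial spoke protein, was at 6.68 and 5.95 CPM in OLs and 0.162 and 0.0547 CPM in OPCs (log2 fold change 5.76 ± 0.39, edgeR adjusted p = 0.000257), and most members stayed at low levels in every library. The astrocyte list rose in the same libraries, and its part in these values was not tested.

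Of 19 circadian clock genes, 14 rose and 3 fell. Dbp, an output factor of the clock, was at 82.9 and 67.5 CPM in OLs and 24.5 and 24.1 CPM in OPCs (log2 fold change 1.61 ± 0.12, edgeR adjusted p = 0.000361), and Per2, a repressor in its core loop, was at 7.26 and 6.50 CPM in OLs and 22.9 and 22.7 CPM in OPCs (log2 fold change -1.74 ± 0.12, edgeR adjusted p = 0.000246). Without either OPC library, 9 rose and 1 fell. Axon guidance genes gave 21 of 56 up and 17 down, the 17 becoming 11 without OPC anti-miR-ctl replicate 1. Sema5a, a semaphorin made by OLs, was at 665 and 441 CPM in OLs and 25.1 and 25.9 CPM in OPCs (log2 fold change 4.42 ± 0.23, edgeR adjusted p = 0.000119), and the plexin Plxnb3 was at 1293 and 1004 CPM in OLs and 232 and 219.7 CPM in OPCs.

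Chromatin genes gave 7 of 39 up and 15 down, the 7 becoming 3 without either OPC library and 11 without OL miR-ctl replicate 2. Sirt2, a deacetylase enriched in myelin, was at 2933 and 2790 CPM in OLs and 209.7 and 209 CPM in OPCs (log2 fold change 3.76 ± 0.09, edgeR adjusted p = 3.5e-05), and Uhrf1, which keeps DNA methylation through replication, was at 9.39 and 7.48 CPM in OLs and 112 and 112 CPM in OPCs (log2 fold change -3.74 ± 0.13, edgeR adjusted p = 5.42e-05). Complement genes gave 6 of 18 up and 7 down. Clu, a secreted chaperone, was at 358 and 381 CPM in OLs and 31.9 and 31.7 CPM in OPCs, and the 3 chains of C1q were not called.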
